A study of Homo sapiens with 8 samples.

Results

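The regions described here were the widest stretches of the genome in which both histone marks of the study were called in every library. Overlapping or touching peaks of all 8 peak lists were merged into 175569 regions, of which 23481 held a peak of all 8 lists. Of these, 964 were 2500 bp or wider and are called the wide shared regions below, 0.549% of all merged regions and 4.11% of those shared by all 8 lists. Width and presence in every list chose the regions, so both are given as a description with no test. Nearest the width limit on its inner side were regions near CACNG4 (2500 bp) and at SACM1L (2500 bp), and on its outer side regions near IRAG1 (2499 bp) and near IQANK1 (2499 bp).

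The libraries were CUT&Tag libraries, in which an antibody guides a transposase to cut and tag DNA next to a histone mark, made from about 50000 cells each of the HCT15 line, which was established from a human colorectal cancer. The parental cells (HCT15-Pa) are labelled as treated with DMSO, and the 5-fluorouracil (5-FU)-resistant cells (HCT15-FR) as treated with 5-FU at 20 μg/mL, the dose at which the study maintained them before 3 days in drug-free medium. Succinylation of lysine 23 of histone H3 (H3K23su) and acetylation of lysine 27 (H3K27ac) were each profiled in 2 libraries of each line, named replicate 1 and replicate 2. Nothing in the labels says that the replicates came from separate cultures, so the p-values below measure only the spread between these libraries, and 1 resistant line of 1 parent stands for resistance. The lists held 65364 to 76676 peaks and no read counts, so the depth of a library is unknown and no counting interval is given.

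H3K27ac is placed by histone acetyltransferases and is the standard mark of active promoters and enhancers. H3K23su is an acyl mark made from succinyl-CoA, an intermediate of the tricarboxylic acid cycle, and it removes the positive charge of the lysine as acetylation does. Wide stretches of acetylated chromatin are known from promoters of strongly transcribed genes and from clusters of enhancers. 5-FU is a pyrimidine analogue that blocks thymidylate synthase and enters RNA and DNA.

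The wide shared regions spanned 2.76 Mb in all, with a median width of 2756 bp and a maximum of 4468 bp. At 3000 bp or more there were 255, at 3500 bp or more 53, and at 4000 bp or more 7. Nearly every region of this width carried both marks in every library, since 94.2% of the 1023 merged regions of 2500 bp or more had a peak in all 8 lists. The name "everywhere" held for presence and not for extent, because a merged region could be assembled from peaks of different libraries that overlapped only in part. Only 24.5% of the bases of the 964 regions lay under a peak in all 8 lists. That share was 34.4% in the 8274 shared regions of 1500 to under 2500 bp and 31.9% in the 14243 under 1500 bp. No base was covered by all 8 lists in 86 of the 964 regions, 690 of the 8274 and 1427 of the 14243.

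The DNA of the regions was of several kinds, and 7 stretches of 200 bases from the hg19 assembly (GRCh37) are printed as examples. The first 2 are the bases just upstream of the transcription start site (TSS) of PHLDA1 and SLC30A1, both among the regions that every library covered by at least 80%. PHLDA1 is chr12:76425557-76425756 on the minus strand, and SLC30A1 chr1:211752504-211752703 on the minus strand. The next 5 come from regions with no TSS and are centred on the middle of the longest stretch that all 8 lists covered, on the plus strand. Near TBC1D22A that stretch was 179 bp, so the 200 printed bases run past it. They are the widest region of all (near DNAJB12, chr10:74082447-74082646), a region built of a tandem repeat (near PPP2R2D, chr10:133731152-133731351), a region longer in HCT15-FR in both marks (near TBC1D22A, chr22:47171989-47172188) and 2 regions longer in HCT15-Pa in both marks (near SPRY1, chr4:124467351-124467550, and near ALKAL2, chr2:400489-400688). Capitals mark exact matches, on either strand, to the letters searched, which were GGGCGG for SP and KLF factors, CCAAT for the CCAAT box, CCGGAA for ETS factors, GGAATG for TEAD factors, AGATAA for GATA factors, CACGTG for the E-box and TGTTTAC for forkhead factors. AP-1 factors were searched as TGACTCA, which on the other strand reads TGAGTCA.
PHLDA1: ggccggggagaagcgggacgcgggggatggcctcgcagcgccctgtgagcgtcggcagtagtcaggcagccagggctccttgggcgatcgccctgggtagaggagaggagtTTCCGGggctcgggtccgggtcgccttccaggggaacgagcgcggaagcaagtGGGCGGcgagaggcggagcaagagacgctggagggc
SLC30A1: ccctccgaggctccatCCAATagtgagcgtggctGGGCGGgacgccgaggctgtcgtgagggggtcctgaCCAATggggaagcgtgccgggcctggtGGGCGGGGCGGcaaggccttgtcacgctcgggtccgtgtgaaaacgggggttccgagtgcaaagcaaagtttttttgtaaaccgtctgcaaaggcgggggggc
near DNAJB12: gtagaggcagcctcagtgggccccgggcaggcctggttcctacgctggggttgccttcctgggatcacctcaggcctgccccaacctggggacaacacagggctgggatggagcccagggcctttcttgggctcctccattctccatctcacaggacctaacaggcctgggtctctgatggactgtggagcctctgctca
near PPP2R2D: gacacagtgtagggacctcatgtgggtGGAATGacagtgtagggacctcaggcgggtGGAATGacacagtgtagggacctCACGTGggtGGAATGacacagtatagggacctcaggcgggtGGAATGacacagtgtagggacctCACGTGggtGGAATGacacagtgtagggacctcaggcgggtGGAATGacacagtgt
near TBC1D22A: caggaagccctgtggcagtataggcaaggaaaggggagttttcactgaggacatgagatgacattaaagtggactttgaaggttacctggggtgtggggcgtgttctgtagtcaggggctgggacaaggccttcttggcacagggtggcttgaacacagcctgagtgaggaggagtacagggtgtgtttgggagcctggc
near SPRY1: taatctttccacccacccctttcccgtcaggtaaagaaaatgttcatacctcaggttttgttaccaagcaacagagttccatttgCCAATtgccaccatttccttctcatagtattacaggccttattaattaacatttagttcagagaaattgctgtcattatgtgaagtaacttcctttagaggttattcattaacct
near ALKAL2: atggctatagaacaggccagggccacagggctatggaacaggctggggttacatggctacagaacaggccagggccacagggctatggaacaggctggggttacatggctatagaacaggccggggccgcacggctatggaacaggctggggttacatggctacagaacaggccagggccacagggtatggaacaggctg

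The printed stretches differed more clearly in CpG sites than in G or C content. Those near DNAJB12, ALKAL2 and PPP2R2D were 63.5%, 59.5% and 56.5% G or C, the first close to SLC30A1, and held 2, 3 and 5 CpG sites. The 200 bases upstream of PHLDA1 and SLC30A1 were 71.5% and 65.0% G or C and held 21 and 17 CpG sites, whereas the stretches near TBC1D22A and near SPRY1 were 55.0% and 37.0% G or C and held 1 CpG site each. Over the full spans, the median GC content of the 580 wide shared regions with a protein-coding TSS was 62.8%, with 6.45 CpG sites per 100 bp, against 56.9% and 1.95 in the 301 regions with no TSS. A CpG observed-to-expected ratio of 0.6 or more, the usual mark of a CpG island, was found in 69.3% of the first and 7.64% of the second. Over all 964 regions that share was 46.8%, beside 49.7% of the 8274 regions of 1500 to under 2500 bp and 28.2% of the 14243 narrower regions shared by all 8 lists.

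The next question was how much of each region each library covered. Peaks of the H3K23su lists covered 50.9% and 50.7% of the bases of the 964 regions in HCT15-Pa and 64.3% and 63.1% in HCT15-FR. The H3K27ac lists covered 65.5% and 65.3% in HCT15-Pa and 73.7% and 72.5% in HCT15-FR. In both marks the 2 FR libraries lay above the 2 Pa libraries, and at the same line the H3K27ac lists covered more than the H3K23su lists. The median covered length of a region was 1440 and 1453 bp in the Pa and 1883 and 1854 bp in the FR libraries of H3K23su, and 1927 and 1892 bp against 2149 and 2112 bp in those of H3K27ac.

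**Figure D1:**
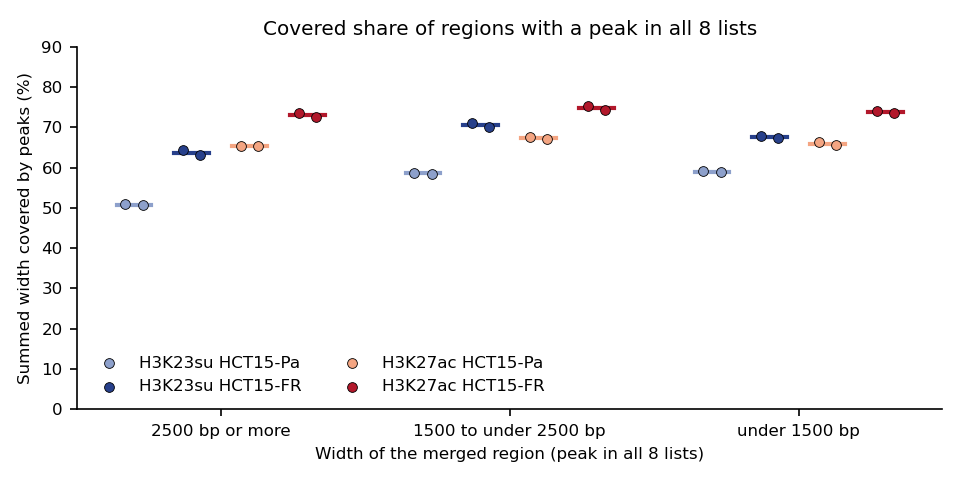
Share of the bases of the 964 wide shared regions that each library covered (percent, y axis from 0), by mark and line, with 1 point per library and a short line at the mean of the 2 libraries, beside the narrower regions shared by all 8 lists. The H3K23su libraries lie at 50.7 to 50.9% in HCT15-Pa and at 63.1 to 64.3% in HCT15-FR, and the H3K27ac libraries at 65.3 to 65.5% and 72.5 to 73.7%.

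The mean covered share was 50.8% ± 0.105 in HCT15-Pa and 63.7% ± 0.839 in HCT15-FR (SD, n = 2) for H3K23su, a difference of 12.9 percentage points, and 65.4% ± 0.133 and 73.1% ± 0.83 for H3K27ac, a difference of 7.71 points. Each difference was larger than the spread between replicates. An exact two-sided permutation test of 2 against 2 libraries gave p = 0.333 in each mark, the smallest value that this design can give. The peaks of both lines set the 2500 bp spans, so this comparison is a description and the p-value lends it no support. The whole lists differed the same way and covered 33.5 and 33.0 Mb (Pa) and 40.0 and 39.4 Mb (FR) for H3K23su, and 39.5 and 38.8 Mb against 46.3 and 46.6 Mb for H3K27ac. The mean peak width of a list was 505 to 507 bp in the Pa and 581 to 586 bp in the FR libraries of H3K23su, and 550 bp in both Pa against 608 and 627 bp in the FR libraries of H3K27ac. The part that these list-wide differences have in the regions' values was not tested. In the regions of 1500 to under 2500 bp the same difference was 11.9 points for H3K23su and 7.39 points for H3K27ac.

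Because the lists of both lines entered the choice of regions, the line difference was also taken from lists of the mark that did not choose them. In 505 regions chosen by the same rule on the 4 H3K27ac lists alone, H3K23su covered 47.7% and 47.5% in HCT15-Pa and 59.4% and 59.3% in HCT15-FR, a difference of 11.7 points. In 354 regions chosen on the 4 H3K23su lists alone, H3K27ac covered 68.1% and 67.4% in HCT15-Pa and 73.3% and 71.7% in HCT15-FR. The direction was the same, and the H3K27ac difference was 4.74 points, less than the 7.71 points above.

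The share of a list's covered length that fell inside the wide shared regions was small in every library. It was 4.18% and 4.24% in the Pa and 4.43% and 4.42% in the FR libraries of H3K23su, and 4.57% and 4.64% against 4.39% and 4.29% in those of H3K27ac. The 2 marks thus differed between the lines in opposite directions on this measure (FR minus Pa), by 0.211 and -0.266 percentage points. The difference between the marks was not tested. The regions of 1500 to under 2500 bp showed the same directions, with 0.222 points in H3K23su and -1.71 in H3K27ac. The pattern was thus not particular to the wide shared regions. In the narrower shared regions both differences were negative, -1.06 and -1.55 points.

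Between the marks, coverage is given as a description with no test, because the lists of both marks formed the spans. The 4 H3K23su libraries covered 57.2% ± 7.44 of the regions' bases and the 4 H3K27ac libraries 69.2% ± 4.47 (SD, n = 4 each), a difference of 12 points. Within HCT15-Pa the difference was 14.6 points and within HCT15-FR 9.42 points. The H3K27ac peaks were called with the broad option of the peak caller and the H3K23su peaks without it, so mark and calling option cannot be told apart in any comparison of the marks. The highest H3K23su library (64.3%) lay just under the lowest H3K27ac library (65.3%). In the regions of 1500 to under 2500 bp the difference was 6.44 points and the libraries of the marks overlapped. H3K23su was also the more divided mark, with 1.69, 1.70, 1.66 and 1.72 peaks per region (Pa 1, Pa 2, FR 1, FR 2) against 1.48, 1.48, 1.35 and 1.45 for H3K27ac, a difference of -0.252 in the means (H3K27ac minus H3K23su). A single H3K23su peak was found in 41.1 to 45.2% of the regions and a single H3K27ac peak in 57.6 to 67.6%.

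Peaks that alone reached 2500 bp were rare. Nearly all lay in these regions, which the rule brings about, since such a peak makes a merged region of 2500 bp or more. Of the merged regions of that width, 94.2% were wide shared regions. The H3K23su lists held 31 and 26 such peaks in HCT15-Pa and 96 and 73 in HCT15-FR, and the H3K27ac lists 98 and 99 against 194 and 159. Of them, 29, 25, 96 and 72 (H3K23su) and 92, 91, 182 and 152 (H3K27ac) lay in the wide shared regions. In 34 of the 964 regions a single library covered every base, and a region held a median of 12 peaks over the 8 lists. By the authors' −log10 P, the best peak of a region stood on average at percentile 72.5 to 74.4 of its H3K23su list and 79.5 to 80.5 of its H3K27ac list.

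The regions differed from each other in how evenly the libraries filled them. In the library that covered a region least, the median covered share was 38.6%, and in the library that covered it most, 88.1%. All 8 libraries covered at least 50% of the span in 281 regions and at least 80% in 12, and in 4 regions no library reached 50%. The longest covered length came most often from the FR libraries of H3K27ac (223 and 213 regions) and the shortest from the Pa libraries of H3K23su (292 and 291 regions). Over the 964 regions the covered lengths of replicate libraries correlated at r = 0.704 to 0.782, those of the same mark in different lines at 0.438 to 0.517, and those of different marks at 0.0963 to 0.357. These are descriptions across regions that share width limits and libraries, and regions are not independent replicates.

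Among promoters, the longest stretches common to all 8 lists lay at the following genes. The region at LRRC41 and UQCRH, the second a subunit of respiratory complex III, was 2869 bp wide and was covered over 2283, 2469, 2833 and 2627 bp in H3K23su (Pa 1, Pa 2, FR 1, FR 2) and over 2464, 2379, 2503 and 2457 bp in H3K27ac. All 8 lists shared 1 stretch of 2265 bp there, and the means of the lines differed by 354.0 bp in H3K23su and 58.5 bp in H3K27ac. PHLDA1, a pleckstrin homology-like protein of the plasma membrane and cytoplasm, followed with 2238 bp, the promoter pair KIAA0753 and TXNDC17 with 2196 bp, and SLC30A1, a zinc exporter, with 2102 bp. SLC30A1 was covered over 2308, 2334, 2461 and 2395 bp in H3K23su and 2272, 2205, 2127 and 2380 bp in H3K27ac of its 2591 bp. SLC38A1, a transporter of neutral amino acids, and LNPEP, an aminopeptidase of vesicles and the cell surface, had common stretches of 2154 and 2065 bp. The promoters of SLC30A1, SLC38A1 and PHLDA1 were thus among the 12 regions that every library covered by at least 80%.

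Several of the widest regions were filled less evenly. The region at SUN1, which encodes an inner nuclear membrane protein that links the nucleus to the cytoskeleton, was 4335 bp wide (chr7:869853-874187). H3K23su covered 1005 and 688 bp of it in HCT15-Pa and 1464 and 1918 bp in HCT15-FR, and H3K27ac 899 and 1837 bp against 3565 and 3621 bp. The lines did not overlap in either mark, and 247 bp were covered by all 8 lists. At SOCS2, a feedback inhibitor of cytokine signalling (4150 bp), H3K23su covered 1623 and 2097 bp against 3082 and 2803 bp, and H3K27ac 3648 and 3556 bp against 3815 and 4150 bp, so that 1 H3K27ac library covered the whole region. DUSP4, a phosphatase that switches off MAP kinases, had a region of 4076 bp with 1552 and 1762 against 2445 and 2587 bp of H3K23su and 1727 and 2195 against 3448 and 3840 bp of H3K27ac. In these 3 genes every FR library lay above every Pa library of the same mark.

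**Figure D2:**
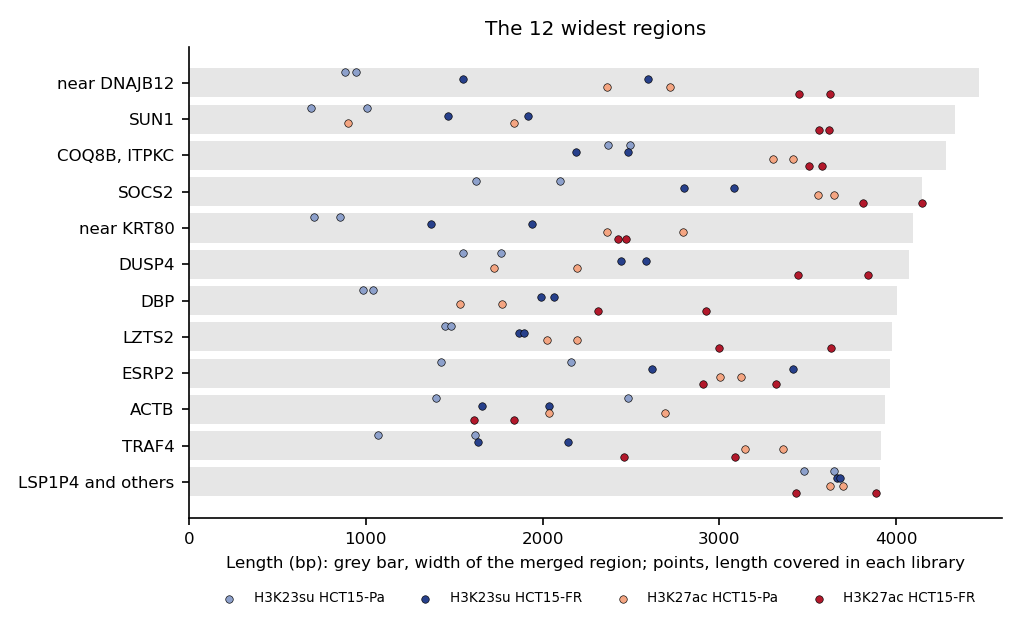
Covered length (bp, x axis) of the 12 widest regions in each of the 8 libraries, with the mark and line of each point given by its colour and the full width of the region as a grey bar. SUN1, SOCS2 and DUSP4 have FR points to the right of the Pa points in both marks, and the pseudogene region at LSP1P4 has all 8 points between 3434 and 3885 bp.

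Among the other genes of the 12 widest, DBP and LZTS2 likewise had every FR library above every Pa library in both marks, and the rest did not. DBP, a circadian transcription factor (4007 bp), was covered over 1039 and 986 bp against 1990 and 2065 bp in H3K23su and over 1532 and 1773 bp against 2925 and 2314 bp in H3K27ac, with no base common to all 8 lists. LZTS2, a regulator of β-catenin localisation (3978 bp), had mean differences of 416.0 bp in H3K23su and 1208 bp in H3K27ac. ESRP2, an epithelial splicing regulator (3968 bp), differed by 1222 bp in H3K23su and 53.0 bp in H3K27ac. ACTB, cytoplasmic actin (3939 bp), went the other way in H3K27ac, with 2692 and 2037 bp in HCT15-Pa and 1610 and 1841 bp in HCT15-FR, while its H3K23su values of 2485, 1399, 1658 and 2037 bp overlapped between the lines. The promoter pair COQ8B and ITPKC (4281 bp), a coenzyme Q synthesis gene and an inositol trisphosphate kinase, was almost level, with mean differences of -93.5 bp in H3K23su and 185.0 bp in H3K27ac. TRAF4, a signalling adaptor protein (3917 bp, within 5 Mb of a large assembly gap), had 1616 and 1069 bp against 1635 and 2146 bp of H3K23su and 3359 and 3148 bp against 3090 and 2463 bp of H3K27ac.

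The widest region of all lay away from any TSS, 31078 bp from that of DNAJB12 (chr10:74079132-74083599, 4468 bp). H3K23su covered 882 and 946 bp of it in HCT15-Pa and 2595 and 1547 bp in HCT15-FR, and H3K27ac 2720 and 2366 bp against 3625 and 3449 bp. Of its bases 229 lay under a peak in all 8 lists, including the stretch printed above, which held none of the searched letters. A region 42928 bp from KRT80, a type II keratin gene (4095 bp), was covered over 854, 709, 1370 and 1939 bp in H3K23su and 2796, 2363, 2425 and 2474 bp in H3K27ac, and had no base common to all lists.

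Genes were assigned by whether the TSS of the canonical transcript lay inside the region. A TSS of any kind lay in 68.8% of the wide shared regions and that of a protein-coding gene in 580 (60.2%), against 59.9% and 53.9% of the regions of 1500 to under 2500 bp and 31.3% and 26.9% of the narrower ones. A further 83 regions held the TSS of other genes only, and 301 held none, of which 182 overlapped the body of a protein-coding gene and 119 did not. At least 2 protein-coding TSSs lay in 100 regions (10.4%, against 8.28% at 1500 to under 2500 bp) and 3 in 9. Protein-coding TSSs on both strands lay in 78 regions (8.09%, against 6.67%). In all, 689 of 20136 protein-coding genes (3.42%) had their TSS in a wide shared region, and 10077 in a region shared by all 8 lists. Since a wider span holds a TSS more easily, these shares are a description.

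The kind of region went with how it was filled. All 8 lists covered 27.6% of the bases in regions with a protein-coding TSS, 24.6% in those with other TSSs only and 18.3% in those with none. The regions of 1500 to under 2500 bp had the same order, with 43.6%, 32.0% and 22.1%. With a protein-coding TSS, the covered share was 53.2%, 53.4%, 67.9% and 67.2% in H3K23su (Pa 1, Pa 2, FR 1, FR 2) and 67.6%, 67.3%, 75.4% and 73.4% in H3K27ac. Without any TSS it was 46.3%, 45.9%, 57.7% and 56.0% in H3K23su and 60.4%, 60.6%, 69.9% and 70.2% in H3K27ac. Every library covered less of the regions without a TSS, and every FR library covered more than every Pa library in each kind. Both held in the regions of 1500 to under 2500 bp as well, so neither was particular to the wide shared regions.

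Around the TSS the marks took different positions. In the 313 regions with a single TSS, that of a protein-coding gene, the span reached a median of 945 bp upstream and 1866 bp downstream, and in 244 of them (78.0%) it was longer downstream, against 81.9% of 2689 narrower regions of the same kind. Of the length covered by H3K23su, 72.7% and 72.0% lay downstream of the TSS in HCT15-Pa and 70.9% in both FR libraries, whereas for H3K27ac the values were 59.2%, 59.2%, 60.4% and 59.4%. The 100 bp bin covered most often was centred 150 bp upstream of the TSS in every H3K27ac library, where 89.8%, 90.7%, 92.3% and 85.2% of the regions were covered. In H3K23su it was centred 650, 150, 550 and 650 bp downstream, where 60.8%, 62.1%, 76.2% and 78.8% were covered. At 50 bp downstream, H3K23su covered 58.9% and 60.4% of the regions in HCT15-Pa and 74.0% and 72.9% in HCT15-FR, and H3K27ac 87.1%, 87.0%, 91.1% and 76.7%, the last value, of FR replicate 2, standing below the other 3.

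**Figure D3:**
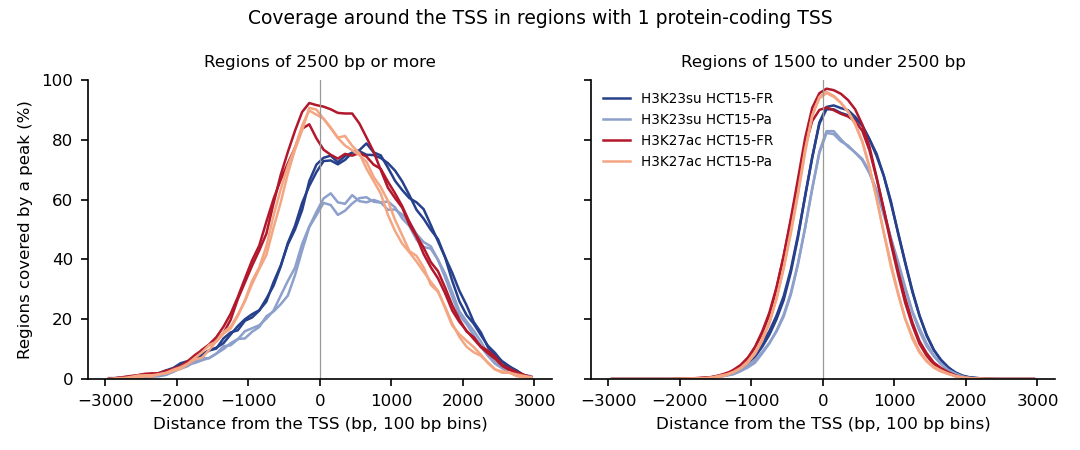
Share of the 313 wide shared regions with a single TSS that were covered (percent, y axis) in each 100 bp bin by distance from the TSS (bp, x axis, negative upstream), with 1 line per library coloured by mark and line, beside the same profile for the regions of 1500 to under 2500 bp. In the wide shared regions the H3K27ac lines peak 150 bp upstream of the TSS at 85.2 to 92.3%, and the H3K23su lines reach 60.8 to 78.8% downstream of it.

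Farther out the order of the marks held upstream and turned downstream. At 950 bp upstream, H3K23su covered 15.8 to 21.7% of the regions and H3K27ac 31.8 to 39.7%. At 1050 bp downstream, H3K23su covered 57.4% and 56.7% in HCT15-Pa and 69.7% and 66.3% in HCT15-FR, and H3K27ac 53.2%, 49.5%, 60.5% and 62.1%, so within each line the H3K23su values were the higher. The mean position of covered bases was 506 to 544 bp downstream of the TSS for H3K23su and 244 to 282 bp for H3K27ac, and in the narrower regions 328 to 336 bp and 196 to 216 bp. The pattern was noticed in these values and was not tested, and mark and calling option cannot be told apart here either.

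Gene by gene, the marks separated most clearly at a minority of regions. All 4 H3K27ac libraries covered more than all 4 H3K23su libraries in 224 regions (23.2%), where 11.6% of all regions shared by the 8 lists did so, and the reverse held in 21 (2.18%, background 2.14%). At 1500 to under 2500 bp the shares were 11.9% and 2.53%. SQSTM1, an autophagy receptor, showed the contrast over a width of 3612 bp, with 541, 778, 2024 and 1639 bp of H3K23su and 3465, 3491, 3526 and 3612 bp of H3K27ac. At NR1D1, a circadian repressor of transcription (2962 bp), H3K23su covered 378, 696, 441 and 735 bp and H3K27ac 2191, 2108, 2840 and 2719 bp. The H2BC21, H2AC20 and H2AC21 histone genes shared a region of 3443 bp with 529, 211, 564 and 271 bp of H3K23su and 1987, 2171, 2964 and 3186 bp of H3K27ac. These 3 loci had every H3K27ac library above every H3K23su library, by 2278, 1902 and 2183 bp on average.

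In the other direction, KLHDC8B, a kelch-domain protein (3358 bp), was covered over 2432, 2412, 2580 and 2716 bp in H3K23su and 1727, 1921, 1116 and 839 bp in H3K27ac. DMWD, a WD-repeat gene (2590 bp), had 1009, 1388, 2037 and 1168 bp of H3K23su and 662, 576, 608 and 366 bp of H3K27ac. A region 25941 bp from ST3GAL4, a sialyltransferase gene, had 2340 to 2819 bp of H3K23su and 1590 to 1844 bp of H3K27ac. The loci named for either direction were picked after their values were seen, from those with the largest differences between the marks.

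Between the lines, regions were counted in which both FR libraries of a mark covered more than both Pa libraries, or the reverse. In H3K23su, 523 of the 964 regions (54.3%) were longer in HCT15-FR, where 40.0% of all regions shared by the 8 lists were, and 66 (6.85%) were longer in HCT15-Pa, with a background of 9.51%. In H3K27ac, 419 (43.5%) were longer in HCT15-FR against a background of 37.9%, and 122 (12.7%) were longer in HCT15-Pa against 12.1%. In both marks at once 252 (26.1%) were longer in HCT15-FR, against 18.5%, and 25 (2.59%) in HCT15-Pa, against 2.54%. The median difference (FR minus Pa) was 369 bp of H3K23su and 166 bp of H3K27ac. Wider spans leave more room for a difference in covered length, and the lists of HCT15-FR covered more of the genome in both marks. The peaks of both lines also set the spans, so these counts are a description with no test.

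**Figure D4:**
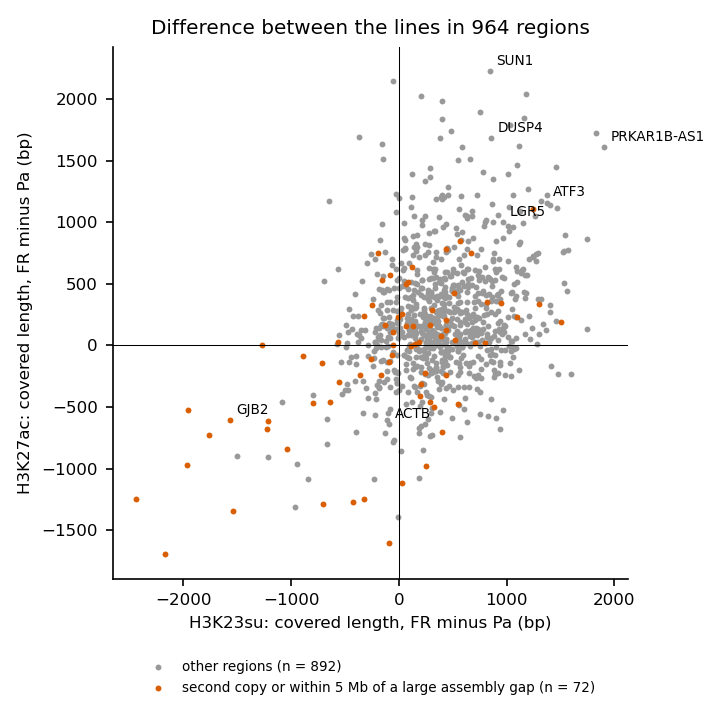
Difference in mean covered length between HCT15-FR and HCT15-Pa (bp) of each of the 964 wide shared regions, H3K23su on the x axis and H3K27ac on the y axis, 1 point per region. The 72 regions with a second copy or near a large assembly gap are coloured orange and reach farthest into the lower left, where both differences are below 0, and the other 892 lie mostly to the upper right.

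Among promoters, the largest difference in favour of HCT15-FR after SUN1 and DUSP4 was at ATF3, a stress-induced transcription factor of the AP-1 family. H3K23su covered 343 and 188 bp of its 2973 bp in HCT15-Pa and 2440 and 838 bp in HCT15-FR, and H3K27ac 1584 and 1713 bp against 2861 and 2755 bp. FRAS1, an extracellular matrix protein, had 2012 and 1868 bp against 3185 and 3338 bp of H3K23su and 1815 and 1505 bp against 2477 and 3186 bp of H3K27ac. PEX10, a peroxisome biogenesis factor, differed by 1567 bp in H3K23su and 775 bp in H3K27ac, and RHOD, a small GTPase of endosomes and actin, by 663 and 1515 bp. The 2 FR libraries lay above the 2 Pa libraries in each of these genes and marks.

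Large differences also lay away from protein-coding promoters, the largest of all at a non-coding gene. The TSS of the non-coding gene ENSG00000267137, 8364 bp from the TBX4 TSS, had 277 and 520 bp against 2358 and 2109 bp of H3K23su, and 1086 and 381 bp against 2745 and 2167 bp of H3K27ac. At PRKAR1B-AS1, an antisense gene of a protein kinase A subunit, H3K23su covered 970 and 734 bp in HCT15-Pa and 2965 and 2551 bp in HCT15-FR, and H3K27ac 747 and 607 bp against 2296 and 2272 bp. The region near TBC1D22A whose sequence is printed above, 11134 bp from that TSS, had 906 and 1241 bp against 2463 and 2600 bp of H3K23su and 946 and 1197 bp against 2411 and 2623 bp of H3K27ac. In these 3 regions the lower FR library stood far above the higher Pa library in both marks.

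The 25 regions longer in HCT15-Pa were of another makeup. Only 3 of them (12%) held a protein-coding TSS, against 149 (59.1%) of the 252 longer in HCT15-FR and 60.2% of all 964. Of the 25, 14 (56.0%) had a second copy in the genome or lay within 5 Mb of an assembly gap of 1 Mb or more, against 6 (2.38%) of the 252 and 72 (7.47%) of all. Without such regions 11 remained longer in HCT15-Pa and 246 in HCT15-FR, among 892. The direction of the line difference was the rule that formed both sets, so these shares are given with no test.

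The 3 promoters longer in HCT15-Pa in both marks were GJB2, CDKN3 and TSC22D2. GJB2, which encodes the gap junction protein connexin 26 and lies within 5 Mb of a large gap, had 2242 and 1833 bp of H3K23su in HCT15-Pa and 289 and 656 bp in HCT15-FR, and 1304 and 1625 bp of H3K27ac against 739 and 977 bp. CDKN3, a phosphatase that acts on cyclin-dependent kinases, had 2173 and 1856 bp against 1082 and 1353 bp of H3K23su, and 1531 and 1393 bp against 818 and 1304 bp of H3K27ac. TSC22D2, a leucine zipper protein, differed by only 204.0 and 321.0 bp. Of the regions without a TSS, that 148983 bp from SPRY1, an inhibitor of growth factor signalling, had 2402 and 2559 bp against 1187 and 769 bp of H3K23su and 2245 and 1546 bp against 960 and 1042 bp of H3K27ac. The region 110453 bp from ALKAL2, the gene of a receptor kinase ligand, had 2031 and 1973 bp against 1110 and 471 bp, and 2400 and 2516 bp against 1328 and 1776 bp. Both stretches are printed above, and the second is a tandem repeat.

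Regions next to large assembly gaps or with a second copy of at least 1000 matching bases at 90% identity or more differed from the rest in direction. There were 60 of the first (6.22%, against 6.3% at 1500 to under 2500 bp) and 27 of the second (2.8%, against 1.28%), 72 in all. Their covered share was 62.0% and 61.2% in the Pa and 57.3% and 57.4% in the FR libraries of H3K23su, and 73.1% and 74.8% against 69.8% and 68.1% in those of H3K27ac. The difference (FR minus Pa) was thus -4.22 and -4.99 points in these 72, against 14.3 and 8.78 points in the other 892. Region by region the 72 were divided, with 20 longer in HCT15-Pa and 19 longer in HCT15-FR in H3K23su (46 and 504 of the other 892), 27 and 19 in H3K27ac (95 and 400 of the others), and median differences of 29.0 and 2.75 bp. In the 602 regions of 1500 to under 2500 bp of the same kind the difference was 9.18 and 4.10 points, in the direction of the rest. The region with the largest mean difference in favour of HCT15-Pa lay on chromosome 16, at the non-coding gene ENSG00000261200 (chr16:33347340-33350758), with 2895 and 2602 bp against 708 and 440 bp of H3K23su and 3167 and 2747 bp against 812 and 1713 bp of H3K27ac. Not every region of this kind was longer in HCT15-Pa, since the region 1593843 bp from PRIM2, close to the centromere gap of chromosome 6, had the longest common stretch of all, 3090 bp of its 3245 bp, with 3094 to 3243 bp covered in every library. The study kept only uniquely mapped reads, and what that and the number of copies have to do with these values was not tested.

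A further kind of sequence was the short tandem array, here a stretch of 200 bases in which at least 85% of the bases matched the base a fixed distance of 10 to 150 bp further on. The test was set up after the printed stretches had been seen. Such arrays lay in 38 wide shared regions (3.94%), against 1.91% of the regions of 1500 to under 2500 bp, and in 25 of the 301 regions with no TSS (8.31%). Within the printed 200 bases near ALKAL2, 86.5% of the bases matched the base 52 bp further on, and near PPP2R2D 83.1% matched the base 64 bp further on. Anywhere in a region, the best-matching distance, which can be a multiple of a shorter unit, was 130 bp near ALKAL2, 104 bp near PPP2R2D, 42 bp near TERT, 135 bp near MUC4 and 56 bp near TRIML1. Of the 38 regions, 34 (89.5%) lay within 5 Mb of a chromosome end, where 20.3% of all 964 lay. They were covered in the same order as the rest, with 50.4% and 50.0% against 59.3% and 57.4% in H3K23su and 64.2% and 63.4% against 69.6% and 71.6% in H3K27ac. Near TRIML1 (3894 bp) the marks parted, with 1393, 621, 204 and 513 bp of H3K23su and 1951, 2973, 3894 and 3368 bp of H3K27ac.

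The searched letters were counted in the 400 bp around the middle of the longest stretch that all 8 lists covered, which 878 wide shared regions had. GGGCGG lay in 59.8% of them, against 57.5% of the regions of 1500 to under 2500 bp and 46.2% of all shared regions. The AP-1 letters lay in 10.0%, against 11.2% and 16.7%, CCAAT in 24.5% (28.6% and 29.6%), CCGGAA in 18.8% (21.4% and 17.6%), CACGTG in 8.77% (8.18% and 7.67%), GGAATG in 17.2% (18.0% and 20.8%), AGATAA in 6.61% (8.31% and 10.8%) and TGTTTAC in 2.39% (3.73% and 5.87%). Within the wide shared regions, GGGCGG lay in 73.9% of those with a protein-coding TSS and 31.9% of those with none, whereas the AP-1 letters lay in 5.47% and 18.1%. A match is a match of letters only, and base composition also differed between these classes, with a part that was not tested.

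Gene lists were then set beside the regions. Of 18 transcription factors of the intestinal epithelium, none had its TSS in a wide shared region, although 9 lay in regions shared by all 8 lists, 650 to 2413 bp wide. None of 13 genes of 5-FU and pyrimidine metabolism did either, while 11 lay in shared regions of 1218 to 2109 bp, among them TYMS, the enzyme that 5-FU blocks, at 1710 bp. Of 15 markers of other lineages (blood, muscle, neuron, fibroblast and liver), 1 lay in any shared region and none in a wide one, whereas 10 of 15 colon epithelial markers lay in shared regions. For these lists and those below, the background was 50.0% of all protein-coding genes in a region shared by all 8 lists. Beside it stood 50.0% of the intestinal factors, 84.6% of the 5-FU genes, 66.7% of the colon markers and 6.67% of other lineage markers. These shares were not tested. In wide regions the background was 3.42% of all protein-coding genes, or 6.84% of those in a region shared by all 8 lists. At that rate short lists have few or no members in wide regions.

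Wnt target genes had 4 of 15 members in wide shared regions and 8 in shared regions. These were LGR5, a stem cell receptor for R-spondins, ZNRF3, a ubiquitin ligase that removes Wnt receptors, NKD1, an inhibitor of Dishevelled, and SP5, a Wnt-induced transcription factor. LGR5 was covered over 1670, 660, 2188 and 2080 bp in H3K23su and 1022, 1313, 2029 and 2302 bp in H3K27ac, and SP5 over 1209, 701, 1807 and 1861 bp and 1587, 929, 2078 and 1840 bp. In both genes the FR libraries lay above the Pa libraries in both marks, and they were 2 of the 4 regions with this pattern, beside 26.1% of all 964 and 18.5% of all shared regions, too few genes to set the list apart. The median difference of the 4 was 731 bp in H3K23su and 436 bp in H3K27ac, beside 369 and 166 bp over all 964.

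Of the AP-1 factors, FOSB, JUN and ATF3 (3 of 12) lay in wide shared regions, and of the immediate-early genes, which growth signals switch on within minutes, IER2, DUSP6, ZFP36L2 and KLF10 (4 of 18, with 16 in shared regions). DUSP6, a phosphatase that inactivates ERK, had 1194 and 1139 bp against 2081 and 1750 bp of H3K23su and 2358 and 2469 bp against 2892 and 3040 bp of H3K27ac. Every FR library lay above every Pa library in both marks in 1 of the 3 AP-1 regions, that of ATF3, and in 2 of the 4 immediate-early regions, beside 26.1% of all 964 and 18.5% of all shared regions. The colon epithelial markers VIL1, a microvillus protein, and CLDN4 and CLDN7, tight junction proteins (3 of 15), each had every H3K27ac library above every H3K23su library, as did 23.2% of all 964. CLDN4 had 620, 651, 1713 and 1582 bp of H3K23su and 1852, 1788, 2457 and 2556 bp of H3K27ac.

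The replication-dependent histone genes, which supply histones in S phase and lie in clusters, had 16 of 64 genes in 8 wide shared regions, with 42 genes in shared regions. The region at H3C14 and that at H2AC19 and H3C15 were among those with a second copy in the genome. In 5 of the 8 regions all H3K27ac libraries covered more than all H3K23su libraries, beside 23.2% of all 964 and 11.6% of all shared regions. In 1 of the 8 the FR libraries lay above the Pa libraries in both marks, beside 26.1% and 18.5%. The median difference between the lines was 134 bp in H3K23su and 588 bp in H3K27ac, beside 369 and 166 bp over all regions. Cytosolic ribosomal protein genes had 4 of 87 members in wide regions, against 74 in shared regions, and zinc finger genes of the ZNF series 11 of 516 genes in 10 wide regions, against 318. No long non-coding RNA of the 9 listed (among them MALAT1 and NEAT1) lay in a wide region, while 8 lay in shared regions.

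Along the genome, the regions were taken as neighbours within 10 kb of each other. Another wide shared region lay within 10 kb of 36 of them (3.73%), always as a pair, and no group of 3 was found. The median distance to the next was 357 kb, and the number of pairs that regions near genes would form by chance was not tested. Neighbours of any width shared by all 8 lists lay within 10 kb of 37.4%, against 30.4% of the regions of 1500 to under 2500 bp and 35.6% of the narrower ones. The 18 pairs included ISG15, an interferon-induced ubiquitin-like protein, and a region near HES4, CDC20, an activator of the anaphase-promoting complex, and ELOVL1, a fatty acid elongase, and the histone genes H3C14 with H2AC19 and H3C15. Both regions of this histone pair had a second copy in the genome. The pair of CASKIN2 and TSEN54 with LLGL2, a cell polarity gene, and that of IRF3 and BCL2L12 with PRMT1, an arginine methyltransferase, lay on chromosomes 17 and 19. EHD1, SSH3 and DUSP4 each had a second region beside their own.

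Pairs could be filled alike or not. The region near HES4 was covered over 2059, 1673, 2450 and 2683 bp in H3K23su and 1725, 1812, 1884 and 1846 bp in H3K27ac, and that at ISG15 over 1769, 1495, 1886 and 2474 bp and 2005, 1902, 2156 and 2553 bp, so both were longer in HCT15-FR in both marks. At CDC20 the values were 2132, 1306, 1888 and 1211 bp and 1364, 1426, 1527 and 1354 bp, with overlapping lines, whereas ELOVL1 had 1807 and 1016 bp against 2360 and 2539 bp of H3K23su and overlapping H3K27ac values of 2546, 2137, 2290 and 2459 bp.

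By chromosome the density was highest on chromosome 19, with 71 regions (12 per 10 Mb), and chromosome 17, with 72 (8.87 per 10 Mb), and chromosome 1 held the most, 111 (4.45 per 10 Mb). Chromosome X held 12 (0.773 per 10 Mb). As a share of the regions shared by all 8 lists on the same chromosome, the wide ones made up 5.96% on chromosome 19, 5.26% on chromosome 17 and 1.75% on chromosome 15, beside 4.11% overall. Of the 964, 20.3% lay within 5 Mb of a chromosome end, against 15.7% of the regions of 1500 to under 2500 bp and 13.2% of the narrower ones.

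**Figure D5:**
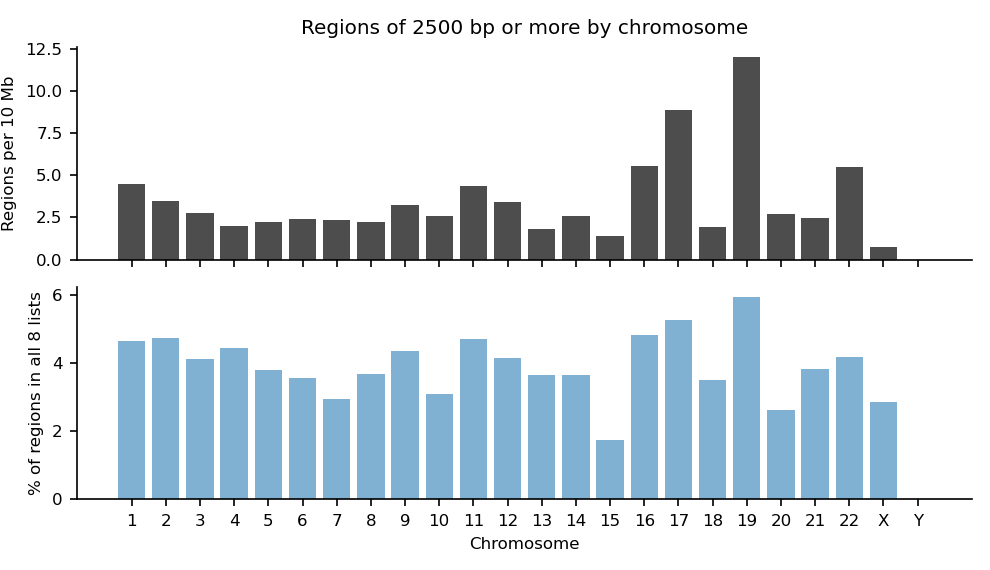
Wide shared regions by chromosome (x axis), with the number per 10 Mb in the upper panel and, in the lower panel, the percent they make up of the regions shared by all 8 lists on that chromosome, 1 bar per chromosome from 0. In the upper panel chromosome 19 stands at 12, chromosome 17 at 8.87 and chromosome X at 0.773.

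Within the set, H3K23su covered the smallest share of the bases in the widest regions. In the 53 regions of 3500 bp or more, H3K23su covered 45.3% and 42.9% in HCT15-Pa and 58.1% and 57.1% in HCT15-FR, and H3K27ac 66.6%, 67.0%, 75.9% and 74.5%. H3K27ac shares were thus close to those over all 964 regions and H3K23su shares were lower in every library. A protein-coding TSS lay in 71.7% of the 53, against 60.2% of all 964.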

How the data were processed

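Reads were aligned by the authors to hg19 with Bowtie2, properly paired, uniquely mapped reads without duplicates were kept with SAMtools, and peaks were called in each library on its own with MACS2, using broad calling for H3K27ac only. Each deposited list holds peak positions and a −log10 P per peak, which is comparable only within a list and was used here only as a percentile. The regions, the classes they are compared with and the gene lists were chosen with earlier results of these data known. Peaks that overlapped or touched were merged over all 8 lists, and the covered length of a region was the summed length of the peaks of 1 library inside it. TSSs were the starts of the canonical transcripts of GENCODE 44 on GRCh37. Regions with no TSS were named by the nearest protein-coding TSS.

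Named were the 12 widest regions, the 6 with the longest common stretch, the 6 with the largest difference in each direction among those longer in 1 line in both marks, also within those with a protein-coding TSS or away from copies and gaps, the 6 widest without a TSS, the 3 on each side of the width limit, pairs within 10 kb and listed genes, with examples printed. Some items that this rule names are not reported here. Large gaps were assembly gaps of 1 Mb or more. Second copies were found with minimap2 2.31-r1302, which skips very frequent sequence. The lines were compared by exact permutation of libraries, tested on simulated data. The test planned between the marks is not used because the lists of both formed the regions. The lists of both lines formed them too, so the p-values between the lines are a description only. Scripts ran in Python 3.11.15 with numpy 2.4.6, pandas 2.3.3, scipy 1.17.1 and pysam 0.24.0.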

Additional observations from a re-analysis of the deposited data

Results flagged for a closer look

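A pair of measures differed between HCT15-FR and HCT15-Pa in opposite directions in the 2 marks, with every FR library on one side of every Pa library. The share of a list's covered length that lay in the wide shared regions was higher in HCT15-FR by 0.211 percentage points in H3K23su and differed by -0.266 points in H3K27ac. The regions of 1500 to under 2500 bp had the same directions, with 0.222 and -1.71 points. The mean percentile of a region's best peak within its own list was higher in HCT15-FR by 1.31 in H3K23su and differed by -0.716 in H3K27ac. Without the 72 regions with a second copy or near a large assembly gap, an alternative chosen after seeing the data, the last value was -0.0755 and the H3K27ac lines overlapped, while H3K23su gave 2.21. The H3K23su value was 0.480, with overlapping lines, without H3K23su HCT15-FR replicate 2 and 0.892 without HCT15-FR replicate 1, and the H3K27ac value was -0.365 without H3K27ac HCT15-Pa replicate 1, -0.475 without H3K23su HCT15-Pa replicate 1 and -1.13 without H3K27ac HCT15-FR replicate 2. The percentile thus rests on few libraries and regions. The difference between the marks was not tested in either case, and the 2 measures come from the same lists.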

How the results depend on the processing

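Of 229 alternative values, 176 counted as unchanged, 39 moved past the limit set for them, 6 reversed and 8 were weaker. A tested difference counted as unchanged if it kept its direction and its side of p = 0.05 in the permutation test. The 8 weaker ones kept their direction but lost a p below 0.05, in the test between the marks that is not used here. Differences between the lines could never fall below 0.05, so for them only the direction counted. Minimum widths of 2000 and 3000 bp gave 3276 and 255 regions, merging peaks within 500 bp gave 1841, and the stronger 50% of each list 590. A minimum of 5000 bp left none and gave no value. The share of regions with a TSS was 60.2% after merging within 500 bp, 78.3% in the stronger peaks, 60.2% for protein-coding genes only, 72.1% with TSSs within 2 kb and, in an alternative chosen after seeing the data, 74.4% with the start of any transcript. Another region within 10 kb was found for 6.96%, 0.784% and 5.16% at 2000 bp, 3000 bp and after merging, for 1.04%, 6.33% and 14.5% within 5, 20 and 50 kb, and for 2.57 to 4.23% with 1 library left out, lowest without H3K27ac HCT15-FR replicate 2.

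The difference between the marks in covered share (H3K27ac minus H3K23su) was 8.70 points at 2000 bp, 9.65 after merging, 12 without the 72 regions with a second copy or near a large gap, chosen after seeing the data, and 10.2 to 15.6 with 1 library left out. With a replicate block it was 12, since such a block leaves a difference of means as it is and could change no direction. Same-numbered libraries deviated together by r = -0.0671 to 0.0595 over the regions. These values cannot tell whether such libraries share a culture, day or batch, which the labels do not give. The difference between the lines (FR minus Pa) in the percentile of the best peak reversed to 0.0443 in H3K27ac at 2000 bp and to -0.103 in H3K23su at 3000 bp, and was 0.480 to 1.90 in H3K23su and -1.13 to -0.365 in H3K27ac with 1 library left out. That in H3K23su peaks per region, -0.00207, reversed to 0.0157 at 3000 bp and 0.0712 after merging, and was -0.0484 to 0.0245 with 1 library left out. The cause was not tested.

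Without 1 library the number of regions was 832 to 910 and the line difference 12.1 to 13.6 points in H3K23su and 6.75 to 8.45 in H3K27ac. In a window of 200 bp the letters lay in 42.8% (SP and KLF), 12.6% (CCAAT), 9.79% (ETS), 8.88% (TEAD), 5.35% (AP-1), 3.99% (E-box), 3.08% (GATA) and 1.25% (forkhead), fewer because the window is shorter. By class, the shares with a protein-coding TSS, other TSSs only and none were 5.47%, 15.8% and 18.1% for AP-1, 3.83%, 9.21% and 11.8% for GATA and 73.9%, 51.3% and 31.9% for SP and KLF. The ETS share was 22.8% with a protein-coding TSS and 9.84% with none, the TEAD share 21.1% with other TSSs only and 21.3% with none, the forkhead share 5.26% with other TSSs only and the E-box share 6.69% with none. The lists hold no depth, and 2 libraries per group cannot give a p under 0.333.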

Other observations

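The 12 regions that every library covered by at least 80% were of several kinds. Besides the promoters of PHLDA1, SLC38A1 and SLC30A1 they held those of IFITM3, an interferon-induced membrane protein, of TDRD3, a tudor-domain protein, and of DCAF6 and MPC2, the second a subunit of the mitochondrial pyruvate carrier. Some of the others lay at pseudogenes or close to centromere gaps, such as the LSP1P4 region and that 254074 bp from NUPR2. At the latter all 8 lists shared 2509 of 2605 bp. The rest were a region 6931 bp from TBC1D14 and those at AL901608.1 and AL928742.1 on chromosome 14, which held short tandem arrays. In the 4 regions in which no library reached 50% of the span, the width came only from peaks of different libraries set beside each other.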
